A study of Mus musculus with 12 samples.

Results

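Ribosome biogenesis factors are the nucleolar and early cytoplasmic proteins that make ribosomes but are not part of the finished particle. The 43 described here were listed by name, with earlier results of these data known. All 43 were found by symbol among the 18227 genes of the deposited count table. All 43 also had enough reads to enter the tests, which covered 15647 genes. Polyadenylated RNA had been sequenced from hepatocytes of BALB/C mice, wild-type males 8 weeks old. Each mouse had received 200 µg of an anti-GR1 or an isotype antibody in 100 µl into the peritoneum and a second dose 2 days later, at the time of a 70% hepatectomy. Cells were isolated 1 or 2 days after the operation (POD1 and POD2), so antibody and day made 4 groups of 3 libraries. All groups therefore shared the strain, the surgery and an injected antibody, and no unoperated group was analysed here. The antibody was given, as stated, to deplete granulocytic myeloid-derived suppressor cells during liver regeneration.

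A ribosome starts in the nucleolus, where RNA polymerase I copies the ribosomal DNA into a long precursor RNA. Small nucleolar ribonucleoproteins (snoRNPs) modify that precursor, box C/D particles by methylation and box H/ACA particles by pseudouridylation, while the small subunit processome and the large subunit assembly factors fold and cut it. Cells that grow before they divide, such as hepatocytes after partial hepatectomy, are known to raise ribosome production, and MYC is a known activator of many of these genes.

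The libraries held 13189392 to 15822043 counts. Of 66 pairs of libraries, 3 differed little more than reads drawn from 1 sample would: their chi-square per gene was 1.62, 5.27 and 3.51, and counting noise alone gives 1. The other 63 pairs stood at 58.3 or above. Replicates 1 and 2 formed such a near-identical pair in isotype POD2 and again in anti-Gr1 POD2. The third pair, called the cross-day pair here, joined replicate 3 of anti-Gr1 POD1 with replicate 3 of anti-Gr1 POD2, whose labels give different days. Each pair within a group was summed and counted as 1 sample, so n = 3 at POD1 and n = 2 at POD2, and results are also given without the cross-day pair. The labels do not say that libraries came from separate animals, so p-values speak only of the spread between these libraries, part or all of which may be technical. Ly6g, which encodes an antigen of the antibody, was higher in the libraries labelled anti-Gr1, by 4.68 on the log2 scale at POD1 (adjusted p = 0.00478, edgeR) and by 6.34 at POD2 (adjusted p = 0.00151), so the check of the target went against the stated depletion. Whether labels or column names were exchanged was not tested; an exchange of the antibodies would turn the direction of every antibody comparison. Below, anti-Gr1 means the libraries labelled so. Where POD2 libraries are said not to overlap or to lie above others, the 3 libraries of a group count as only 2 samples. The share of all genes for which this holds is not given, so such statements only describe the libraries.

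The preparation enriches hepatocytes by perfusion and low-speed spinning without a sort, and its cell content differed between groups. The summed level of 12 hepatocyte markers was 136336 to 141756 CPM (counts scaled to a common library size) in isotype POD2, against 30507 to 37689 for anti-Gr1 on that day; at POD1 it was 9902 to 17037 with isotype and 3972, 4501 and 38366 with anti-Gr1. The sum of 6 cycling-cell markers was 925 to 1008 CPM in isotype POD2 and 77.5 to 185 CPM in the other 9 libraries. The sum of 10 neutrophil markers was 3078 to 8760 CPM in anti-Gr1 and 47.8 to 631 CPM in isotype. The sum of 6 Kupffer cell and macrophage markers was 752 to 1149 CPM in isotype POD2 and 2797 to 6078 CPM elsewhere, and that of 5 endothelial markers was 773 to 1009 CPM against 1825 to 3725 CPM. The sum of 12 pancreatic acinar markers ran from 76.3 CPM in isotype POD1 replicate 3 to 328251 CPM in isotype POD2 replicate 3. No marker of these lists was at 0 in any library. These sums differed between the groups compared below, and their part in the results was not tested. In such bulk samples fewer cells of a type and less RNA per cell cannot be told apart.

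Summed over the 43 members, the level at POD1 was 1727, 1794 and 1553 CPM with isotype and 1838, 1769 and 1441 CPM with anti-Gr1. At POD2 it was 1808, 1836 and 2044 CPM with isotype and 1565, 1600.0 and 1408 CPM with anti-Gr1. In these scaled values the 3 isotype POD2 libraries were above the 3 anti-Gr1 POD2 libraries, and the POD1 groups overlapped. Unscaled, as a percent of all counts, POD2 values were 0.149, 0.151 and 0.123 with isotype and 0.159, 0.159 and 0.151 with anti-Gr1. The order of these sums at POD2 thus depended on scaling. Scaling factors, which enter every CPM here, were 0.821, 0.823 and 0.602 in isotype POD2 and 0.991 to 1.29 in the other libraries. A smaller factor gives a higher CPM. Single members ran from 6.79 CPM for Fbl to 367 CPM for Ncl. Per kilobase of exon, mean levels over the libraries were highest for Nhp2 (49.1 CPM per kilobase), Nop10 (48.6), Npm1 (42.7) and Ncl (27.2) and lowest for Wdr12 (1.38). Nhp2 varied most, by 3.90 times between its lowest and its highest library, and Rrs1 varied least, by 1.29 times.

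**Figure D1:**
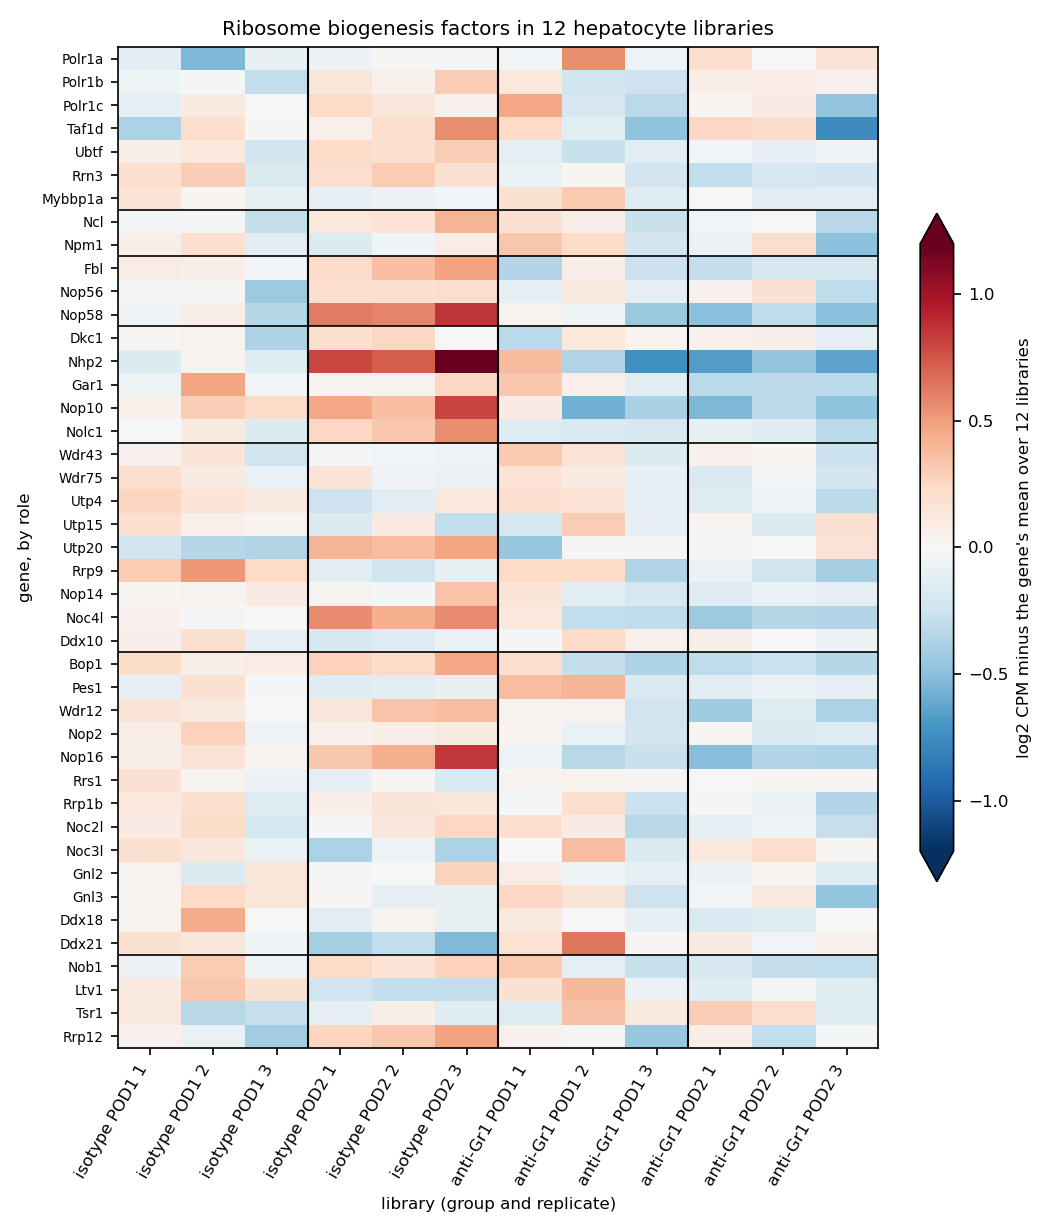
Level of each ribosome biogenesis factor in each of the 12 libraries, as log2 CPM minus the gene's mean over all libraries, with genes in rows by role and libraries in columns by group. Red cells, above the mean, gather in isotype POD2 for Nop58, Nhp2, Nop10, Noc4l and Nop16, while Ddx21 and Ltv1 are blue there.

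The first question was how the antibodies differed 2 days after surgery. In anti-Gr1 at POD2, 7 of the 43 factors were lower than in isotype, 0 were higher and 36 did not pass. Across all genes tested, 9.22% were lower and 16.1% higher at the same threshold, 25.3% in all. The members thus had calls in the lower direction above the background share and none in the higher direction, and 7 of 43 in either direction lies below 25.3%. The 7 were Nop58 of the box C/D particle, Nhp2, Nop10 and Nolc1 of the box H/ACA particle and its chaperone, Noc4l of the small subunit processome, and Nop16 and Wdr12 of large subunit assembly. The median of the 43 log2 fold changes was -0.16, against 0.10 over all genes; with library totals in place of scaling factors it turned to 0.27, against 0.51 over all genes. Tests were edgeR quasi-likelihood tests in a single fit over the groups, with Benjamini-Hochberg adjustment over all genes and a threshold of 0.05. DESeq2 called the same 7 members and also Bop1, and the edgeR shares are not the background of that count.

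**Figure D2:**
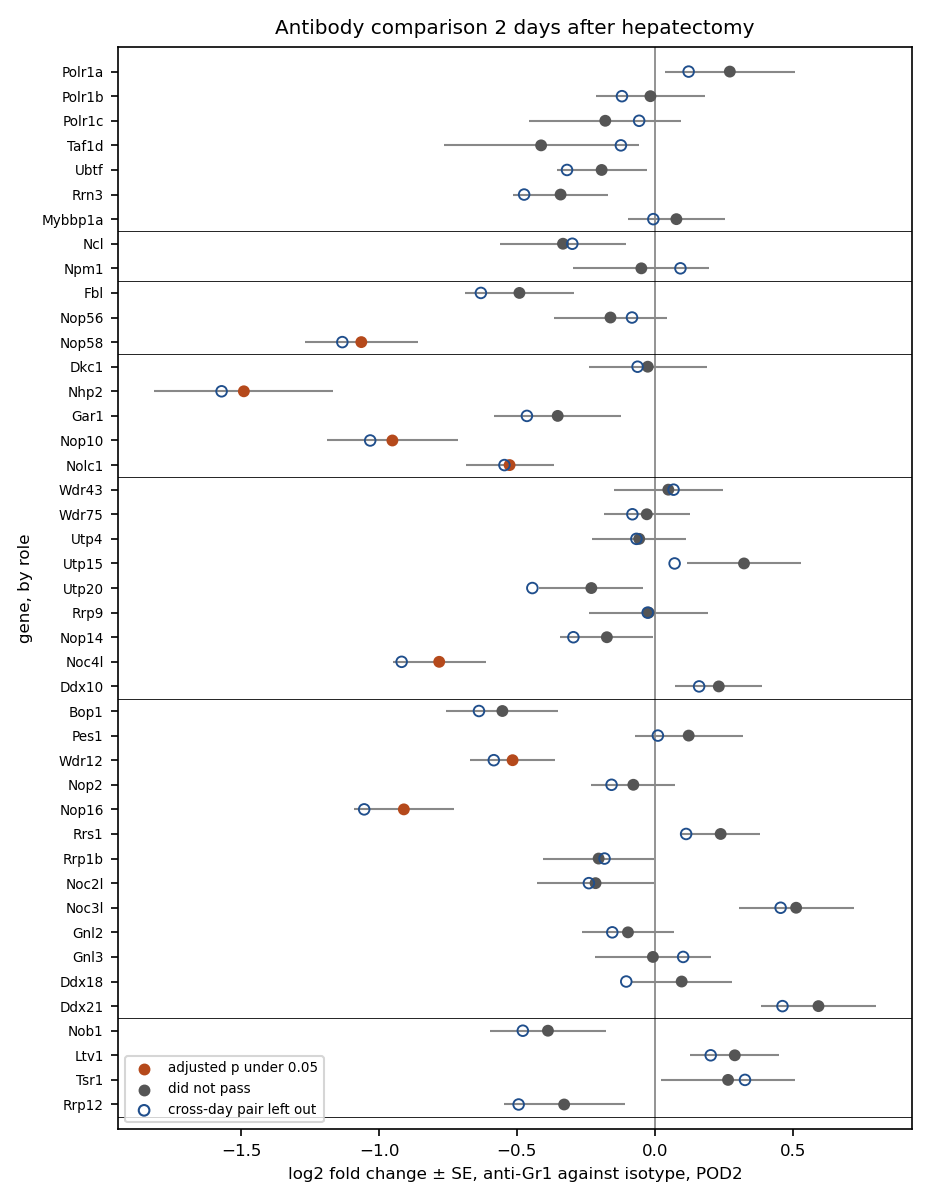
Log2 fold change of each factor, anti-Gr1 against isotype at POD2, with bars of 1 SE, by role. Filled red points passed at an adjusted p under 0.05, filled grey points did not, and open circles give the value with the cross-day pair left out. The 7 red points lie between -1.49 and -0.52, and Ddx21 is the farthest point to the right at 0.59.

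The box H/ACA particle guides pseudouridylation and held the member that differed most. Nhp2 (NHP2 ribonucleoprotein, ENSMUSG00000001056, chromosome 11, 51619735 to 51623714, GRCm38), a core subunit, stood at 46.4, 53.2 and 46.8 CPM (isotype) and 67.3, 40.3 and 31.2 CPM (anti-Gr1) at POD1 and 90.1, 85.4 and 122 CPM (isotype) and 32.6, 37.5 and 33.5 CPM (anti-Gr1) at POD2. The 3 isotype POD2 libraries were higher than all other libraries, while the anti-Gr1 POD1 libraries lay on both sides of the isotype POD1 libraries. Its mean was 105 ± 24 CPM (SD, n = 2) in isotype and 34.2 ± 1.1 CPM (SD, n = 2) in anti-Gr1 at POD2. The level was lower in anti-Gr1 by 1.49 ± 0.32 (SE, adjusted p = 0.0130) on the log2 scale. Nop10 (ENSMUSG00000027133, chromosome 2, 112261926 to 112263269), the smallest core subunit, read 53.6, 63 and 60.1 CPM (isotype) and 55, 34.4 and 39.2 CPM (anti-Gr1) at POD1 and 70.9, 65.8 and 89.9 CPM (isotype) and 35.4, 41.5 and 36.7 CPM (anti-Gr1) at POD2. All 3 anti-Gr1 POD2 libraries were below all 3 isotype POD2 libraries, and Nop10 was lower by 0.95 ± 0.24 (SE, adjusted p = 0.0209). Nolc1, a chaperone of snoRNPs, had 52.1, 56.1 and 46.5 CPM (isotype) and 47.1, 46.3 and 45.8 CPM (anti-Gr1) at POD1 and 61.9, 65.4 and 77 CPM (isotype) and 49.2, 47.2 and 41.8 CPM (anti-Gr1) at POD2. It was lower in anti-Gr1 by 0.53 ± 0.16 (SE, adjusted p = 0.0416) and its groups did not overlap at POD2. Dkc1, the pseudouridine synthase dyskerin, had 19.5, 19.5 and 14.7 CPM (isotype) and 15.1, 20.7 and 19.5 CPM (anti-Gr1) at POD1 and 21.8, 22.6 and 19.1 CPM (isotype) and 19.6, 20.0 and 17.6 CPM (anti-Gr1) at POD2. Its POD2 groups overlapped, with a log2 fold change of -0.03 ± 0.21 (SE, adjusted p = 0.942). Gar1, the fourth core subunit, read 10.9, 15.8 and 11.1 CPM (isotype) and 14.2, 11.9 and 10.4 CPM (anti-Gr1) at POD1 and 11.7, 11.7 and 13.5 CPM (isotype) and 9.13, 9.16 and 9.07 CPM (anti-Gr1) at POD2. The POD2 values were lower in anti-Gr1 but did not pass, at -0.35 ± 0.23 (SE, adjusted p = 0.287). Thus 3 of the 5 genes of this role passed, with log2 fold changes from -1.49 to -0.03 over the 5.

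The box C/D particle carries the methyltransferase fibrillarin. Nop58 (ENSMUSG00000026020, chromosome 1, 59684971 to 59719044), a scaffold subunit, stood at 45.1, 49.8 and 37.1 CPM (isotype) and 48.5, 45.4 and 34.6 CPM (anti-Gr1) at POD1 and 72.6, 70.4 and 85.5 CPM (isotype) and 33.2, 38 and 33.4 CPM (anti-Gr1) at POD2. Isotype POD2 was again above every other library, and the POD2 groups had means of 78.5 ± 9.9 CPM (SD, n = 2) and 34.5 ± 1.6 CPM (SD, n = 2). Nop58 was lower in anti-Gr1 by 1.06 ± 0.20 (SE, adjusted p = 0.00835). Its partner subunit Nop56 read 26.1, 26.8 and 19.6 CPM (isotype) and 24.6, 28.8 and 24.4 CPM (anti-Gr1) at POD1 and 30.5, 30.4 and 30.5 CPM (isotype) and 27.4, 30.1 and 21.4 CPM (anti-Gr1) at POD2. Those values spread little at isotype POD2, and the log2 fold change of -0.16 ± 0.20 (SE, adjusted p = 0.593) did not pass. Fbl, the methyltransferase itself, had 9.22, 9.07 and 8.43 CPM (isotype) and 6.79, 9.16 and 7.25 CPM (anti-Gr1) at POD1 and 10.1, 11.1 and 12.1 CPM (isotype) and 7.08, 7.52 and 7.55 CPM (anti-Gr1) at POD2. The POD2 groups of Fbl did not overlap, and the log2 fold change of -0.49 ± 0.20 (SE, adjusted p = 0.100) did not pass.

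The small subunit processome, which assembles on the precursor as it is made, had 1 of 9 genes lower. Noc4l (ENSMUSG00000033294, chromosome 5, 110648418 to 110653417), whose yeast counterpart pairs with Nop14, stood at 25.6, 24.4 and 24.6 CPM (isotype) and 26.8, 20.1 and 19.9 CPM (anti-Gr1) at POD1 and 36.5, 33 and 36.5 CPM (isotype) and 18.2, 19.4 and 19.3 CPM (anti-Gr1) at POD2. Isotype POD2 was above all other libraries and Noc4l was lower in anti-Gr1 by 0.78 ± 0.17 (SE, adjusted p = 0.0127). Nop14 itself did not pass, at -0.17 ± 0.17 (SE, adjusted p = 0.477). The other 7 were Wdr43, Wdr75, Utp4 and Utp15, subunits of the complex that binds the start of the precursor, Utp20, a large scaffold protein, Rrp9, a protein of the U3 snoRNP, and Ddx10, an RNA helicase. Their log2 fold changes lay between -0.23 (Utp20) and 0.32 (Utp15), and 0 of them passed. Their levels over the 12 libraries were 28.7 to 42.7 CPM for Wdr43, 20.0 to 26.8 CPM for Wdr75, 22.2 to 33 CPM for Utp4, 13.2 to 20.0 CPM for Utp15 and 16 to 21.7 CPM for Ddx10, and those of Rrp9 and Utp20 are given library by library with the comparisons of POD1 and of the isotype course.

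Of the 13 large subunit assembly genes, 2 were lower. Nop16 (ENSMUSG00000025869, chromosome 13, 54584185 to 54590090), a nucleolar protein of early large subunit precursors in yeast, read 38.3, 40.9 and 37 CPM (isotype) and 34.7, 28.7 and 30.0 CPM (anti-Gr1) at POD1 and 45.4, 49 and 65.2 CPM (isotype) and 25.4, 28.4 and 28.1 CPM (anti-Gr1) at POD2. It was highest in the 3 isotype POD2 libraries, with replicate 3 the highest, and was lower in anti-Gr1 by 0.91 ± 0.18 (SE, adjusted p = 0.00942). Wdr12, which forms the PeBoW complex with Pes1 and Bop1, read 18.1, 17.6 and 16.1 CPM (isotype) and 16.7, 16.7 and 13.7 CPM (anti-Gr1) at POD1 and 17.8, 20.6 and 20.9 CPM (isotype) and 12.1, 14.6 and 12.5 CPM (anti-Gr1) at POD2. It was lower in anti-Gr1 by 0.52 ± 0.15 (SE, adjusted p = 0.0406) with no overlap at POD2. Bop1 had 51.7, 46.5 and 47.3 CPM (isotype) and 51.6, 36.5 and 34.4 CPM (anti-Gr1) at POD1 and 53.9, 52.2 and 61 CPM (isotype) and 36, 37.2 and 35 CPM (anti-Gr1) at POD2. The POD2 values were lower in anti-Gr1, but -0.55 ± 0.20 (SE, adjusted p = 0.0775) did not pass by edgeR, while the DESeq2 test called Bop1. Pes1 read 45, 54.4 and 47.2 CPM (isotype) and 62.2, 63.8 and 42.7 CPM (anti-Gr1) at POD1 and 43.4, 44 and 45.3 CPM (isotype) and 44, 45.7 and 44.5 CPM (anti-Gr1) at POD2. Its POD2 groups overlapped, at 0.12 ± 0.20 (SE, adjusted p = 0.675). The 3 subunits of this complex thus gave log2 fold changes of -0.52, -0.55 and 0.12.

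None of the other 9 large subunit factors not yet described passed, and their values lay on both sides of 0. Ddx21 (ENSMUSG00000020075, chromosome 10, 62580251 to 62602281), an RNA helicase of the nucleolus, stood at 84, 81.4 and 72.2 CPM (isotype) and 83.8, 116 and 74.6 CPM (anti-Gr1) at POD1 and 56.2, 60.3 and 51.5 CPM (isotype) and 79.5, 72.5 and 77 CPM (anti-Gr1) at POD2. Isotype POD2 held the 3 lowest values, and the log2 fold change at POD2 was 0.59 ± 0.21 (SE, adjusted p = 0.0677). Noc3l, the counterpart of a yeast protein of large subunit precursors, read 13, 12.5 and 10.8 CPM (isotype) and 11.4, 14.7 and 10.1 CPM (anti-Gr1) at POD1 and 8.79, 11 and 8.74 CPM (isotype) and 12.4, 13.2 and 11.7 CPM (anti-Gr1) at POD2. Its POD2 groups did not overlap, and the log2 fold change was 0.51 ± 0.21 (SE, adjusted p = 0.105). Gnl3, the GTPase nucleostemin, had 39.6, 45.8 and 42.9 CPM (isotype) and 46, 43.3 and 32.7 CPM (anti-Gr1) at POD1 and 39.6, 36 and 36.5 CPM (isotype) and 37.8, 41.7 and 28.1 CPM (anti-Gr1) at POD2. Its POD2 groups overlapped and the log2 fold change was -0.01 ± 0.21 (SE, adjusted p = 0.984). The remaining 6, which are Nop2, an RNA methyltransferase, the GTPase Gnl2, the helicase Ddx18, Rrs1, which helps to dock the 5S particle, Rrp1b, a nucleolar protein of the Rrp1 family, and Noc2l, the counterpart of yeast Noc2, lay between -0.22 (Noc2l) and 0.24 (Rrs1). Their levels over the 12 libraries were 29.9 to 42.2 CPM for Nop2, 34.5 to 46.8 CPM for Gnl2, 12.8 to 19.7 CPM for Ddx18, 20.6 to 26.5 CPM for Rrs1, 9.97 to 14.6 CPM for Rrp1b and 39.5 to 59.1 CPM for Noc2l.

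RNA polymerase I genes had 0 of 7 called at POD2. Polr1b, the second largest subunit of the enzyme, read 9.38, 9.69 and 8.01 CPM (isotype) and 10.7, 8.33 and 8.25 CPM (anti-Gr1) at POD1 and 10.9, 10.3 and 12.1 CPM (isotype) and 10.4, 10.4 and 10.2 CPM (anti-Gr1) at POD2. The groups lay close together, with a POD2 log2 fold change of -0.02 ± 0.20 (SE, adjusted p = 0.961). Rrn3, the initiation factor that brings the polymerase to the promoter, had 31.4, 33.6 and 24.2 CPM (isotype) and 25.9, 27.8 and 23.5 CPM (anti-Gr1) at POD1 and 31.7, 33.7 and 31 CPM (isotype) and 22.3, 23.6 and 23.4 CPM (anti-Gr1) at POD2. Isotype was higher at POD2 without overlap, but -0.34 ± 0.17 (SE, adjusted p = 0.180) did not pass. Polr1a, the largest catalytic subunit, Polr1c, shared with RNA polymerase III, Taf1d, a subunit of the promoter selectivity factor, Ubtf, which coats active ribosomal DNA, and Mybbp1a, a nucleolar regulator, lay between -0.41 (Taf1d) and 0.27 (Polr1a). Levels over the 12 libraries were 16.6 to 31.8 CPM for Polr1c, 12.3 to 30.4 CPM for Taf1d, 69.5 to 102 CPM for Ubtf and 85.3 to 117 CPM for Mybbp1a.

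The most abundant nucleolar proteins did not pass either. Ncl, nucleolin, read 272, 272 and 226 CPM (isotype) and 312, 292 and 229.6 CPM (anti-Gr1) at POD1 and 301, 309 and 367 CPM (isotype) and 270.1, 276 and 219 CPM (anti-Gr1) at POD2. The isotype POD2 libraries were the highest of the POD2 libraries and -0.33 ± 0.23 (SE, adjusted p = 0.314) did not pass. Npm1, nucleophosmin, read 117, 129 and 102 CPM (isotype) and 141, 131 and 96.4 CPM (anti-Gr1) at POD1 and 99.7, 108 and 119 CPM (isotype) and 107, 129 and 79.7 CPM (anti-Gr1) at POD2. Its POD2 groups overlapped, at -0.05 ± 0.25 (SE, adjusted p = 0.902), and because Npm1 has processed pseudogenes its counts are less certain. Among the 4 late small subunit factors, Nob1, the nuclease that makes the final cut of the small subunit RNA, had 19.9, 25.8 and 20.1 CPM (isotype) and 26, 19.3 and 17.4 CPM (anti-Gr1) at POD1 and 24.5, 23.5 and 25.4 CPM (isotype) and 18.3, 17.2 and 17 CPM (anti-Gr1) at POD2. Anti-Gr1 POD2 was lower without overlap, and -0.39 ± 0.21 (SE, adjusted p = 0.206) did not pass. Ltv1 and Tsr1, which ride on late small subunit precursors, were at 0.29 and 0.27, and Rrp12, an export factor, at -0.33. Tsr1 and Rrp12 ran from 10.2 to 16.5 CPM and from 10.1 to 19.3 CPM over the 12 libraries.

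**Figure D3:**
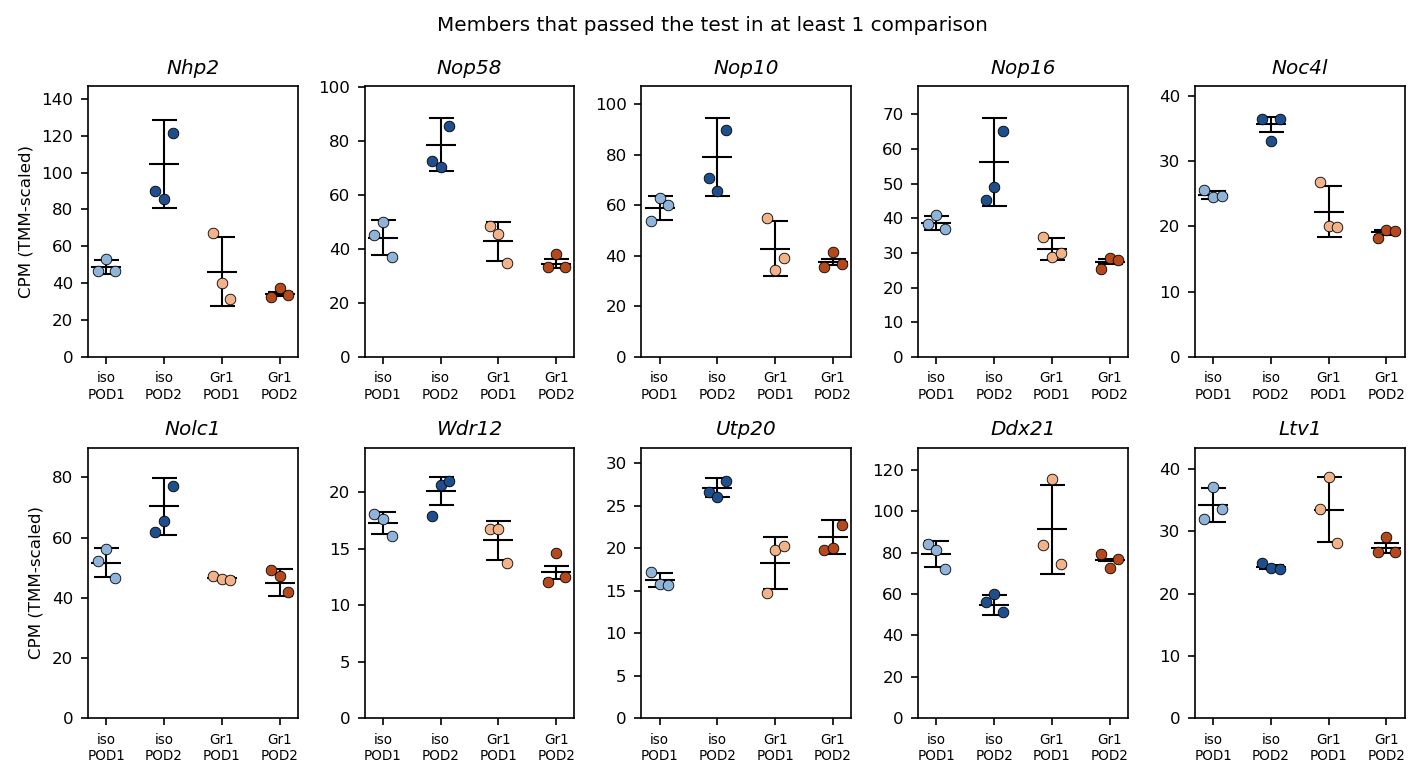
CPM of the 10 factors that passed in at least 1 comparison, by group, with isotype (iso) in blue and anti-Gr1 (Gr1) in orange. Points are the 3 libraries, the horizontal bar is the group mean with near-identical libraries averaged first, and the whiskers are 1 SD (n = 3 at POD1, n = 2 at POD2). In the 7 panels from Nhp2 to Wdr12, the isotype POD2 points lie above the anti-Gr1 POD2 points.

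Leaving out the cross-day pair leaves anti-Gr1 POD2 with 1 summed sample, which is assumed to vary like the other groups. In that fit 3 of the 7 calls at POD2 remained: Nhp2 (adjusted p = 0.0388), Nop58 (0.0390) and Nop16 (0.0484), where 4.34% of all genes were lower. Nop10, Nolc1, Noc4l and Wdr12 did not pass there, with log2 fold changes of -1.03, -0.55, -0.92 and -0.58, and 0 of the 7 passed without isotype POD2 replicate 3 or without anti-Gr1 POD2 replicate 3, each of which also leaves 1 sample in its group. Nolc1 and Wdr12 also lost their calls with no filter on low counts, without isotype POD1 replicate 2 and without isotype POD2 replicate 2, and Wdr12 without anti-Gr1 POD2 replicate 1. With library totals in place of scaling factors Nhp2 alone passed. Relative to the median of all genes Nhp2 stood at -1.54 against -1.59 with scaling, and Nop58 at -1.13 against -1.16. A change of scaling shifts all genes by nearly the same amount, so these relative values could hardly differ and do not test the calls.

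The promoters of 3 members that were lower at POD2, and that of Rrn3, which did not pass there but carries the MYC-binding E-box, are shown because MYC is a known activator of the pathway. RefSeq (GRCm38.p6) gave windows of 300 bases, 250 before to 50 after the start, for 37 of the 43 members, all but Fbl, Npm1, Bop1, Rrs1, Gnl2 and Rrp12. The motif searched was CACGTG, which reads the same on both strands, and it is in capitals. Nop58, Nhp2 and Nop16 are the members whose call at POD2 remained without the cross-day pair, and Rrn3 is the member with the motif at 2 places. The windows are chr1:59684756-59685055, plus strand for Nop58, chr11:51619523-51619822, plus strand for Nhp2, chr13:54590025-54590324, minus strand for Nop16 and chr16:13780449-13780748, plus strand for Rrn3.
Nop58: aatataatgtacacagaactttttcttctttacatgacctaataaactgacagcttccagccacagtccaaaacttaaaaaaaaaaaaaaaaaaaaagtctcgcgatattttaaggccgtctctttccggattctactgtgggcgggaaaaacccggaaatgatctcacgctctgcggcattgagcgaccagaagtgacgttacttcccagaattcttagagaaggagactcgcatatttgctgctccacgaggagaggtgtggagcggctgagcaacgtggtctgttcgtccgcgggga
Nhp2: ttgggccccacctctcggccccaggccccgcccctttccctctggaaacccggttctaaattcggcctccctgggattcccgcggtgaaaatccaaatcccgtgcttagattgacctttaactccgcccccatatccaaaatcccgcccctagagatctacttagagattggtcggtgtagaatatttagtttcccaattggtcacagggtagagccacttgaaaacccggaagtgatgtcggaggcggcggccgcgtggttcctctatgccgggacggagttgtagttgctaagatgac
Nop16: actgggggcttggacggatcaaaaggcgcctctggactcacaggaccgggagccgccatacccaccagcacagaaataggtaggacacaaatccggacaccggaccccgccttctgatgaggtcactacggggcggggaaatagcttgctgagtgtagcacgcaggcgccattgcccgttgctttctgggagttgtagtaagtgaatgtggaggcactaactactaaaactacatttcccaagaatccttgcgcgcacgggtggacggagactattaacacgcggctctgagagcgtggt
Rrn3: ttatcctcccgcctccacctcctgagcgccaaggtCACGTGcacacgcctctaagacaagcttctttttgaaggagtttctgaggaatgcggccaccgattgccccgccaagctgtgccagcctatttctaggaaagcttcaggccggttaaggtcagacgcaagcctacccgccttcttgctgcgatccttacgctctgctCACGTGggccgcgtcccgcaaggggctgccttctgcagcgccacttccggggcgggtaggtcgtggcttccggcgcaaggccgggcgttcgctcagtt

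The motif stood in the window of 9 of the 37 members (24.3%) and of 2187 of all 27025 genes with a window (8.09%). The 27025 are more than the 18227 genes of the count table, while every member had enough reads to be tested. These shares are therefore of unlike sets and do not show that the motif is enriched in the members. The 9 were Ltv1, Mybbp1a, Nop2, Pes1, Rrn3, Tsr1, Utp20, Utp4 and Wdr43. It was in 0 of the 7 members lower at POD2 and in 9 of the other 30 (30.0%). A match only describes these letters in this window. Myc itself read 68.8, 76.1 and 64.8 CPM (isotype) and 75.9, 109 and 50.5 CPM (anti-Gr1) at POD1 and 43.1, 40.9 and 66.9 CPM (isotype) and 64.3, 63.4 and 51 CPM (anti-Gr1) at POD2. Its groups overlapped in both antibody comparisons, with log2 fold changes of 0.17 ± 0.27 (SE, adjusted p = 0.790) at POD1 and 0.20 ± 0.34 (SE, adjusted p = 0.695) at POD2.

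One day after surgery no biogenesis factor passed the antibody comparison. At POD1, 0 of the 43 factors were higher and 0 lower by edgeR, while 0.735% of all genes passed. DESeq2 also called 0 members, and 1 member had an unadjusted p under 0.05, against 16.4% of all genes. The median log2 fold change was -0.03, with a range from -0.45 (Nop10) to 0.43 (Polr1a). Nop10 had the smallest p, at -0.45 ± 0.19 (SE, adjusted p = 0.290), from the POD1 values given above, which overlap. Polr1a read 27.9, 21.1 and 28.8 CPM (isotype) and 29.9, 45 and 29.4 CPM (anti-Gr1) at POD1 and 29.2, 31 and 30.2 CPM (isotype) and 35.2, 30.7 and 34.3 CPM (anti-Gr1) at POD2. The POD1 groups did not overlap, yet anti-Gr1 replicate 2 alone reached 45 CPM and the log2 fold change was 0.43 ± 0.19 (SE, adjusted p = 0.320). Nop16 was at -0.31 ± 0.15 (SE, adjusted p = 0.341), and Rrp9 at -0.29 ± 0.18 (SE, adjusted p = 0.435). Rrp9 levels were 21.5, 24.9 and 20.5 CPM (isotype) and 20.5, 20.3 and 13.5 CPM (anti-Gr1) at POD1 and 16, 14.7 and 16.4 CPM (isotype) and 16.5, 14.7 and 13.2 CPM (anti-Gr1) at POD2. Its POD1 groups overlapped through anti-Gr1 replicate 1. Nhp2 and Nop58, lower at POD2, stood at -0.07 ± 0.26 (SE, adjusted p = 0.914) and -0.03 ± 0.16 (SE, adjusted p = 0.939) at POD1.

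The difference between the POD2 and POD1 antibody effects was tested directly, because a call at POD2 alone does not show that the days differ. By edgeR, 0 of 43 members passed, while 5.60% of all genes did. DESeq2 called 3 (Nop58, Nhp2 and Noc4l), for which the edgeR share of 5.60% is not the background. The DESeq2 share of all genes is not given here, so the 3 do not set the members apart. By edgeR, 4 had an unadjusted p under 0.05, against 24.7% of all genes. These 4 were Nop58 at -1.03 ± 0.26 (SE, adjusted p = 0.0563), Nhp2 at -1.42 ± 0.41 (SE, adjusted p = 0.0775), Noc4l at -0.63 ± 0.22 (SE, adjusted p = 0.118) and Nop16 at -0.60 ± 0.23 (SE, adjusted p = 0.153). The value farthest above 0 was that of Noc3l, at 0.51 ± 0.27 (SE, adjusted p = 0.276). The median over the members was -0.13, against 0.09 over all genes, and with library totals 0.44 against 0.66. The difference was below 0 for 32 of the 43 members and for 7146 of all 15647 genes, and with library totals for 3 of the 43.

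Within the isotype groups, the time course asked which factors changed from POD1 to POD2. Nop58, Nhp2 and Utp20 rose and Ltv1 and Ddx21 fell, so 3 of 43 were higher and 2 lower, while 12.6% of all genes were higher and 19.7% lower (32.3% in all). Nhp2 rose by 1.02 ± 0.29 (SE, adjusted p = 0.0265) on the log2 scale and Nop58 by 0.76 ± 0.18 (SE, adjusted p = 0.0151). Utp20 (ENSMUSG00000004356, chromosome 10, 88746607 to 88826804) had 17.2, 15.9 and 15.7 CPM (isotype) and 14.7, 19.8 and 20.3 CPM (anti-Gr1) at POD1 and 26.6, 26 and 28 CPM (isotype) and 19.9, 20.0 and 22.7 CPM (anti-Gr1) at POD2. Its isotype POD2 libraries were above all others and it rose by 0.66 ± 0.17 (SE, adjusted p = 0.0198). Ltv1 (ENSMUSG00000019814, chromosome 10, 13178140 to 13193168) read 31.9, 37.2 and 33.6 CPM (isotype) and 33.6, 38.7 and 28.2 CPM (anti-Gr1) at POD1 and 24.9, 24.1 and 24 CPM (isotype) and 26.7, 29 and 26.7 CPM (anti-Gr1) at POD2. The isotype POD2 values were the lowest of the 12, and Ltv1 fell by 0.57 ± 0.15 (SE, adjusted p = 0.0209). Ddx21, lowest in the same libraries, fell by 0.61 ± 0.19 (SE, adjusted p = 0.0417). DESeq2 kept the other 4 calls but not that of Ddx21 (adjusted p = 0.0579), and it added Nolc1, Noc4l and Nop16 as higher. The shares of all genes given above are those of edgeR and not of DESeq2, so the DESeq2 calls do not set the members apart. By edgeR the nearest members that did not pass were Noc4l at 0.44 ± 0.15 (SE, adjusted p = 0.0546), Rrp9 at -0.57 ± 0.20 (SE, adjusted p = 0.0579) and Nop16 at 0.46 ± 0.16 (SE, adjusted p = 0.0593).

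The isotype course and the POD2 antibody comparison share the isotype POD2 libraries, so the values of a gene in these comparisons are not independent. Without the cross-day pair Nop58, Nhp2 and Utp20 passed, where 16.8% of all genes were higher, and Ltv1 (adjusted p = 0.0561) and Ddx21 (0.0838) did not, and without isotype POD2 replicate 3 the number called was 0. The count fell to 2 without isotype POD1 replicate 1 or 3 and to 1 without replicate 2. Ddx21 also lost its call without anti-Gr1 POD2 replicate 2 or 3. With library totals, 21 members were lower and 0 higher in the isotype course, while the median of all genes was itself -0.73. The median of the members was -0.66 there, 0.078 above that of all genes, so the 21 do not set the members apart. Utp20 was then at -0.03, which is 0.70 above the median of all genes, against 0.72 with scaling. Values relative to that median hardly depend on scaling by construction, so this likeness does not test the call. Mki67, a marker of cycling cells, was at 317, 305 and 297 CPM in isotype POD2 and between 11.2 and 48.6 CPM in the other libraries. Alb, the hepatocyte product albumin, was at 4120.3, 3541 and 5265 CPM in isotype POD1 and 77833 to 79599 CPM in isotype POD2.

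From POD1 to POD2 in the anti-Gr1 groups, 0 of 43 factors passed by edgeR and 0 by DESeq2, 0 had an unadjusted p under 0.05, and 0 of all 15647 genes passed (0%), against 4.91% at an unadjusted p under 0.05. The cross-day pair lies inside this comparison. The median of the members was -0.14, against 0.003 over all genes, and 34 of the 43 were below 0, none of them a call. The smallest p-values were those of Gar1 at -0.38 ± 0.21 (SE, adjusted p = 0.720), Ltv1 at -0.26 ± 0.15 (SE, adjusted p = 0.720), Wdr12 at -0.25 ± 0.14 (SE, adjusted p = 0.720) and Pes1 at -0.30 ± 0.18 (SE, adjusted p = 0.720). The extremes were Nhp2 at -0.39 ± 0.29 (SE, adjusted p = 0.724) and Utp20 at 0.25 ± 0.17 (SE, adjusted p = 0.720). Without the cross-day pair 0 members passed while 3.35% of all genes did.

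Other genes of the pathway were described beside the members, from a list of 105 textbook factors of which 104 were measured and all 104 tested. At POD2, 18 were lower and 1 was higher in anti-Gr1, with a median of -0.24 that turned to 0.19 with library totals. In either direction 19 of 104 lies below the 25.3% of all genes, while 18 lower calls lie above the 9.22% of all genes that were lower. Pih1d1, a subunit of the R2TP complex that helps to assemble snoRNPs, read 39.8, 52.1 and 44.4 CPM (isotype) and 40.8, 29.1 and 29.7 CPM (anti-Gr1) at POD1 and 70.1, 74.5 and 83.3 CPM (isotype) and 28.1, 30.9 and 30.2 CPM (anti-Gr1) at POD2. Isotype POD2 was above all other libraries, and Pih1d1 was lower in anti-Gr1 by 1.26 ± 0.21 (SE, adjusted p = 0.00487). The R2TP helicases Ruvbl1 and Ruvbl2 were lower in anti-Gr1 too, by 0.64 ± 0.16 (adjusted p = 0.0216) and 0.74 ± 0.17 (adjusted p = 0.0174). They were picked from the 18 lower genes for their shared complex and not by p-value, so they do not show a theme. Pelp1, a large subunit factor that works with Senp3 and Wdr18, had 36.9, 38.7 and 34.3 CPM (isotype) and 32.5, 36.2 and 34.8 CPM (anti-Gr1) at POD1 and 63.6, 70.3 and 70.3 CPM (isotype) and 38.6, 35.8 and 37.5 CPM (anti-Gr1) at POD2. It was lower in anti-Gr1 by 0.76 ± 0.13 (SE, adjusted p = 0.00627). Ngdn, a processome protein, had 30.4, 35.9 and 31.7 CPM (isotype) and 36.5, 29.3 and 30.3 CPM (anti-Gr1) at POD1 and 45.2, 44.5 and 56.7 CPM (isotype) and 26.7, 25.7 and 27.6 CPM (anti-Gr1) at POD2. It was lower in anti-Gr1 by 0.80 ± 0.17 (SE, adjusted p = 0.0133). Its call was lost without the cross-day pair, where anti-Gr1 POD2 has 1 sample. The 1 higher gene was Naf1, an assembly factor of box H/ACA particles, at 0.86 ± 0.24 (SE, adjusted p = 0.0325).

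In the isotype course 11 of the 104 rose and 6 fell, both below the shares of all genes (12.6% higher and 19.7% lower). Pelp1 rose by 0.83 ± 0.12 (SE, adjusted p = 0.00234). Pwp2, a processome subunit, read 13.2, 14 and 13.9 CPM (isotype) and 12.9, 15 and 15.9 CPM (anti-Gr1) at POD1 and 25.7, 28.3 and 23.6 CPM (isotype) and 14, 12.6 and 15.3 CPM (anti-Gr1) at POD2, and rose by 0.81 ± 0.15 (SE, adjusted p = 0.00543). Its partner Tbl3 had 24.1, 25.5 and 20.2 CPM (isotype) and 30.6, 21.3 and 20.1 CPM (anti-Gr1) at POD1 and 45.5, 39.9 and 52 CPM (isotype) and 22.1, 22.8 and 20.8 CPM (anti-Gr1) at POD2, and rose by 0.94 ± 0.20 (SE, adjusted p = 0.00934). Ftsj3, an RNA methyltransferase, read 42, 48.6 and 41.9 CPM (isotype) and 52.2, 53.9 and 46.8 CPM (anti-Gr1) at POD1 and 64.7, 68.8 and 84.1 CPM (isotype) and 49.4, 50.0 and 47.9 CPM (anti-Gr1) at POD2. All 3 isotype POD2 values of these 4 genes were above the other libraries, and Ftsj3 rose by 0.69 ± 0.14 (SE, adjusted p = 0.00831).

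The same list gave 0 calls of 104 by edgeR at POD1, in the difference between days and in the anti-Gr1 course, with 5, 14 and 2 genes at an unadjusted p under 0.05. At POD1 the smallest p-values belonged to Rrp36 at -0.45 ± 0.12 (SE, adjusted p = 0.130), Wdr3 at 0.55 ± 0.16 (SE, adjusted p = 0.159) and Pih1d1 at -0.45 ± 0.17 (SE, adjusted p = 0.237). Rrp36, which acts in early cleavages, read 21, 20.5 and 22.2 CPM (isotype) and 17, 14.6 and 14.9 CPM (anti-Gr1) at POD1 and 23.3, 20.7 and 21.8 CPM (isotype) and 13.2, 14.8 and 15.4 CPM (anti-Gr1) at POD2. Both days were lower in anti-Gr1 without overlap. Wdr3, a processome subunit, read 19.6, 17.8 and 19.1 CPM (isotype) and 22.7, 33.9 and 25.4 CPM (anti-Gr1) at POD1 and 17.2, 18.7 and 15.8 CPM (isotype) and 23.3, 21.8 and 23.5 CPM (anti-Gr1) at POD2. Here anti-Gr1 was the higher group on both days without overlap. In the difference between days Pelp1 was at -0.68 ± 0.17 (SE, adjusted p = 0.0553), Pwp2 at -0.81 ± 0.22 (SE, adjusted p = 0.0630) and Tbl3 at -1.06 ± 0.29 (SE, adjusted p = 0.0673). In the anti-Gr1 course Ruvbl2 was at -0.40 ± 0.16 (SE, adjusted p = 0.720), Rrp7a at -0.46 ± 0.20 (SE, adjusted p = 0.720) and Senp3 at -0.29 ± 0.13 (SE, adjusted p = 0.720). None of these 3 passed. Ruvbl2 had 39.5, 39.5 and 33.7 CPM (isotype) and 38.7, 39.4 and 29.9 CPM (anti-Gr1) at POD1 and 44.8, 43.9 and 51.9 CPM (isotype) and 26.5, 28.4 and 25.7 CPM (anti-Gr1) at POD2. Rrp7a, a small subunit factor, had 33, 37 and 29.2 CPM (isotype) and 42.2, 37.5 and 26.4 CPM (anti-Gr1) at POD1 and 26.5, 26 and 23.5 CPM (isotype) and 24.9, 22.6 and 26.5 CPM (anti-Gr1) at POD2. Senp3, a SUMO protease of the nucleolus, had 67.1, 64.5 and 67.6 CPM (isotype) and 66.6, 71.9 and 58.7 CPM (anti-Gr1) at POD1 and 51.3, 51.6 and 53.9 CPM (isotype) and 50.5, 53 and 53.3 CPM (anti-Gr1) at POD2. Within anti-Gr1 the days did not overlap for Ruvbl2 and Senp3 and overlapped for Rrp7a.

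The products that the factors assemble were read in the same fit. Of 80 cytosolic ribosomal protein genes tested, 5 were lower and 0 higher in anti-Gr1 at POD2. Their median was -0.67, against 0.10 over all genes, and 76 of the 80 values were below 0. Unscaled, their summed percent of all counts overlapped at POD2. It was 0.689, 0.698 and 0.805 with isotype and 0.650, 0.729 and 0.581 with anti-Gr1. The 5 lower calls are a smaller share than the 9.22% of all genes. In the isotype course 3 rose and 0 fell, with a median of 0.32 that turned to -0.40 with library totals, and 3 of 80 is below the 12.6% of all genes that were higher. At POD1, in the difference between days and in the anti-Gr1 course 0 passed by edgeR, with 1, 3 and 0 at an unadjusted p under 0.05 and medians of -0.04, -0.60 and -0.31. The ribosomal protein medians were farther from 0 than those of the biogenesis factors at POD2, with the smaller share of calls.

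**Figure D4:**
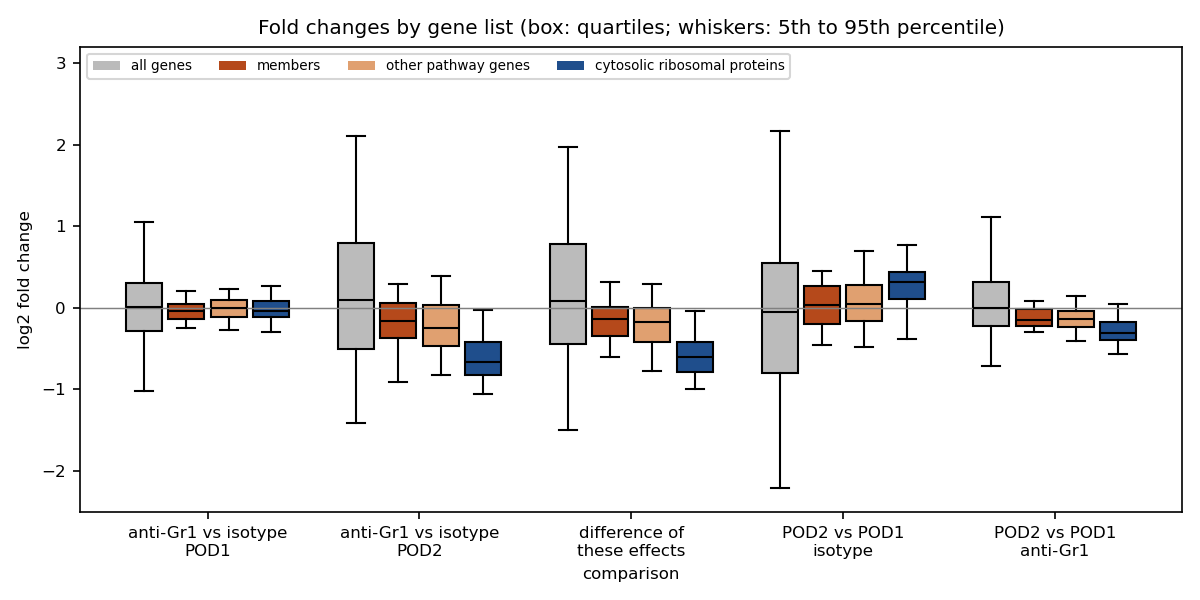
Distribution of log2 fold changes in each of the 5 comparisons for all 15647 genes tested, the 43 biogenesis factors (members), 104 other pathway genes and 80 cytosolic ribosomal proteins. Boxes are quartiles with the median as a line, and whiskers reach the 5th and 95th percentiles. At POD2 the medians are 0.10, -0.16, -0.24 and -0.67 in that order, and at POD1 all lie within 0.05 of 0.

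Gene length moved with the POD2 values across the genome. Protein-coding genes were put in 4 classes by exon length. The shortest class had a median log2 fold change of -0.28 at POD2 (n = 3525) and the longest 0.34 (n = 3527), with Spearman's rho of 0.21 over 14098 genes. Genes of a library share its depth and are not independent, so this is a description. Among the 43 members rho was 0.10; the 10 in the shortest class had a median of -0.27 and the 7 in the longest, Nop58 and Wdr12 among them, one of -0.33. Nhp2 and Nop10 have exon lengths of 1.15 and 1.11 kilobases, and Nop58 10.8 kilobases. The part of length in the results of the members and of the ribosomal proteins was not tested.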

How the data were processed

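The values, as the authors deposited them, are raw read counts of each gene in 1 table; per the submitters' processing notes cutadapt, STAR, HTSeq and DESeq2 were used with the mouse build GRCm38. Their versions, settings, annotation release and strand handling were not given in the sources used here, so reads of overlapping and antisense genes cannot be told apart. All 12 columns were matched to samples by title, and 0 columns were of no sample. In 15 cases a symbol stood for more than 1 identifier, and the one with more counts kept it. Coordinates and exon lengths come from GENCODE M21 (GRCm38), which held 18214 of 18227 identifiers and all 43 members under the same symbol. Promoters come from RefSeq (GRCm38.p6).

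Members and lists were chosen with earlier results of these data known. Libraries of a group with a chi-square per gene under 10, over genes with at least 10 reads in the pair, were summed, leaving 10 samples. Counts were fitted in R 4.3.3 with edgeR 4.0.16: filterByExpr, TMM scaling (trimmed mean of M-values), a robust quasi-likelihood fit with 1 mean per group, and Benjamini-Hochberg adjustment over 15647 genes. The script was tested on simulated data. SEs are the log2 fold change over the square root of F. CPM used TMM factors of the 12 single libraries, 0.602 to 0.823 in isotype POD2 and 0.991 to 1.29 in the other groups. The fit used those of the 10 samples, so a ratio of mean CPM can differ from the fitted fold change. Means and SDs average summed libraries first. Named genes were 10 fixed members, all called members, and the 4 smallest p-values and both extremes of each comparison. Of the other pathway genes, those with the 3 smallest p-values in each comparison were named. Ruvbl1, Ruvbl2 and Naf1 at POD2 were named outside this rule. The 23 alternatives covered sample handling, scaling, filtering, DESeq2 1.42.0 and leaving out each library.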

Additional observations from a re-analysis of the deposited data

How the results depend on the processing

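At POD2, the 7 members called between antibodies became 13 with all 12 libraries as separate samples, 3 with the cross-day pair left out, 11 with both changes, 1 with no scaling factors, and 0 to 10 when single libraries were left out. In the difference between days, 0 became 3 with 12 separate libraries, with or without the cross-day pair, 3 with the DESeq2 test, and 0 to 3 when single libraries were left out. In the isotype course, 5 became 10 with 12 separate libraries, with or without the cross-day pair, 3 with only the cross-day pair left out, 21 with no scaling factors, and 0 to 8 when single libraries were left out. In the anti-Gr1 course, 0 became 1 with 12 separate libraries and the cross-day pair left out, where 16.4% of all genes passed. With 12 separate libraries, 41.9% of all genes passed at POD2, 16.6% in the difference and 46.4% in the isotype course. With the cross-day pair also left out, these shares were 40.4%, 12.9% and 48.7%. In either direction the counts of members in these fits lie below the shares of all genes. At POD2 the count was 8 with the DESeq2 test, with DESeq2 size factors and with only the groups compared. The addition was Bop1 in each. At POD1 the count was 0 in each of the 23 alternatives. Replicate numbers were not taken to pair the samples, since correlations of same-numbered deviations from the group means ran from -0.27 to 0.35; the cross-day pair is near-identical and shares a number, yet stood at only 0.24 in this check, so the check is a weak one. With 12 separate libraries and a replicate block the counts were 0 at POD1, 12 at POD2 and 3 in the difference. They were 9 in the isotype course and 0 in the anti-Gr1 course. Shares of all genes are not given for this fit, for DESeq2, without scaling factors or without single libraries. Those counts thus do not set the members apart. With no scaling factors the isotype course of Nob1 turned to -0.58, of Utp20 to -0.030 and of Ftsj3 to -0.0098. Alb at POD1 turned from 0.33 to -2.31 without the cross-day pair (also -2.31 with separate libraries) and to between -2.33 and 0.86 without single libraries. The cause of these changes was not tested.

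Over all genes, 115 were called at POD1 and 3960 at POD2, against 525 and 6404 with 12 separate libraries and 793 and 1650 without the cross-day pair. The isotype course gave 5058, 7094 and 5429 in that order, the difference between days 877, 2539 and 76, and the anti-Gr1 course 0, 0 and 545. Groups of 2 samples at POD2 limit the precision, and leaving out 1 of them leaves a lone sample that is assumed to vary like the other groups.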
